A study of Mus musculus with 3 samples.

Results

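Parp9, Dtx3l, Parp14, Parp10, Parp11 and Parp12 are genes of ADP-ribosylation that are linked to interferon signaling, and Parp1 and Parp2 encode the nuclear enzymes of the same family that act at DNA breaks. These 8 genes were chosen by symbol, from a gene table of 32285 entries, and all 8 were found in it. They were followed in sc-RNAseq of mouse colon organoids, which are cultures of colon epithelium in full medium (FM), in 1 untreated library, 1 library after 24 h of IFN-γ and 1 library after 48 h of IFN-γ. All 3 libraries hold sorted live cells that the labels call epithelial cells. The labels name no genotype, strain or age. Organoids have neither immune nor stromal cells around them, so the cultures are a model of the epithelial response alone.

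ADP-ribosylation is the transfer of ADP-ribose from NAD+ onto proteins or nucleic acids. PARP1 and PARP2 build long chains of it at DNA breaks, whereas most other members of the family, among them PARP10, PARP11, PARP12 and PARP14, attach single units and are known from antiviral and interferon responses. PARP9 binds ADP-ribose through macrodomains and forms a complex with DTX3L, an E3 ubiquitin ligase of the deltex family, and the genes of this pair start next to each other on opposite strands.

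Parp14, Dtx3l and Parp9 lie side by side on mouse chromosome 16 (GRCm38, GENCODE vM21). Parp14 covers chr16:35832874-35871544 and Dtx3l covers chr16:35926511-35939151, both on the minus strand. Parp9 covers chr16:35938470-35972605 on the plus strand, so that its 5′ end overlaps the 5′ end of Dtx3l. The coding transcripts of Dtx3l start at 35939151 and those of Parp9 at 35938470 or 35939011, which puts the starts 140 to 681 bases apart. The other members lie on chromosomes of their own or far apart: Parp11 (chr6:127446840-127494261, plus strand), Parp12 (chr6:39086410-39118349, minus strand), Parp10 (chr15:76231174-76243441, minus strand), Parp1 (chr1:180568924-180601254, plus strand) and Parp2 (chr14:50807841-50821301, plus strand). In this annotation Parp10 overlaps Plec on the same strand, and Parp14, Parp11 and Parp1 overlap Gm49730, Gm43633 and Mir6904. How reads in those stretches were counted was not checked.

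Promoter windows from RefSeq (GRCm38.p6, 250 bases before to 50 bases after a start site) were found for 5 of the 8 genes, Dtx3l, Parp11, Parp12, Parp1 and Parp2. Parp9, Parp14 and Parp10 had no entry. The windows were searched on both strands for the GAS motif, TTCNNNGAA, to which STAT dimers bind, and for the ISRE core, GAAA repeated after a gap of 2 bases, to which IRF factors and ISGF3 bind. GAS was present in 8.30% and the ISRE core in 3.44% of all 32851 windows. Among the 6 windows of the members, matches were found in 1, the upstream window of Parp11, where the GAS match TTCTTGGAA begins 37 bases before the start site and the ISRE core match TTTCGATTTC, read on the other strand, begins 44 bases before it. The 2 matches share 3 bases. A match is a description of letters and no evidence of binding, and a window without a match says nothing of the factor. The Dtx3l window (chr16:35938978-35939277, minus strand) is shown for its start next to that of Parp9. The 141 bases from the Dtx3l coding start to the nearer Parp9 coding start are in capitals, of which 61.0% are G or C. The window was set on a RefSeq start of Dtx3l at 35939027, whereas the capitals begin at the GENCODE coding start, 35939151, so the 2 annotations differ here. The Parp11 window (chr6:127446590-127446889, plus strand) is shown for the joined matches, which are in capitals.
Dtx3l: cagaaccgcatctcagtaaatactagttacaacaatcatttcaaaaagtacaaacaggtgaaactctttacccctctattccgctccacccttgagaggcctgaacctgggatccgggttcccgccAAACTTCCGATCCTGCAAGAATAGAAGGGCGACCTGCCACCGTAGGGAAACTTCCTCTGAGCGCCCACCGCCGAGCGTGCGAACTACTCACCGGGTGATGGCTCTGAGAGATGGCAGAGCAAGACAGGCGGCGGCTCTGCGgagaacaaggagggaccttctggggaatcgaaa
Parp11: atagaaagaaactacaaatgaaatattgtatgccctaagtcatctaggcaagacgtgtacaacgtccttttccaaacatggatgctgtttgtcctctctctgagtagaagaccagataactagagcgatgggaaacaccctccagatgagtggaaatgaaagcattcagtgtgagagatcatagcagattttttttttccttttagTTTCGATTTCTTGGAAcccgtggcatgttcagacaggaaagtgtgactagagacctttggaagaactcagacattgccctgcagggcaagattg

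After filtering, 1058 (untreated), 917 (24 h) and 2934 (48 h) cells were kept, with 47243500 to 71077817 unique molecular identifiers (UMIs, each standing for 1 captured transcript) per library. Median UMIs per cell were 33550, 68784 and 10772 in this order, so the libraries stood apart in depth. Pairs of libraries shared 1 to 4 cell barcodes. Epithelial markers (Epcam, Krt8, Krt18, Krt19, Cdh1, Vil1 and Cldn7) summed to 5518 to 8217 CPM, which are UMIs of a gene scaled to a library total of 1000000. The 7 immune markers summed to 2.59 to 3.70 CPM, with Ptprc and Tyrobp at 0 UMIs in every library. The 8 stromal markers summed to 2.11, 11.3 and 17.8 CPM, again in the order untreated, 24 h and 48 h, of which Acta2 made up 0.84, 10.9 and 17.1 CPM, while Col1a1, Col3a1 and Lum were at 0 UMIs throughout. Each condition is 1 library, so no test across samples was possible, and every interval given here is a 95% interval that covers counting error only.

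All 6 interferon-linked genes were higher in both IFN-γ-treated libraries than without treatment, by 2.75-fold for Parp10 at 24 h up to 18.8-fold for Parp14 at 48 h. Scaled by library totals, Parp1 and Parp2 differed from the untreated library by at most 1.15-fold at either time. A log2 ratio of at least 1 was reached by 6 of these 6 genes at 24 h, where 3.46% of 17412 genes with at least 10 counts in the compared libraries were that much higher, and by 6 of 6 at 48 h, where 5.26% of 17376 genes were. It was reached in neither direction by Parp1 or Parp2, beside 26% of all genes that were at least that much lower at 24 h and 16.6% at 48 h. The median log2 ratio of the 6 genes was 2.44 at 24 h and 2.71 at 48 h, beside -0.46 and -0.18 over all genes. Scaling by trimmed mean of M values (TMM) in place of library totals adds 0.45 to every log2 ratio at 24 h and 0.19 at 48 h, under which 7.03% of all genes were higher and 16.7% lower at 24 h.

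Parp9, the macrodomain partner of Dtx3l, measured 20.4 CPM in the untreated library (1016 UMIs), 135 CPM at 24 h (9568 UMIs) and 144 CPM at 48 h (6811 UMIs). Its log2 ratio to the untreated library was 2.72 (2.63 to 2.82) at 24 h and 2.82 (2.73 to 2.92) at 48 h. Both treated libraries were high and close to each other. Dtx3l, the ubiquitin ligase of the pair, measured 17.4, 93.2 and 106 CPM in the same order, from 867, 6625 and 4998 UMIs. Its log2 ratios were 2.42 (2.32 to 2.52) at 24 h and 2.60 (2.50 to 2.71) at 48 h, slightly below those of Parp9 at both times.

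Parp14, a large transferase with macrodomains that is known as a cofactor of STAT6, had the largest ratios of the 8 genes. It measured 11.7 CPM untreated (582 UMIs), 157 CPM at 24 h (11180 UMIs) and 220 CPM at 48 h (10402 UMIs). The log2 ratio was 3.75 (3.63 to 3.87) at 24 h, with 105 of 17412 genes above it, and 4.24 (4.12 to 4.36) at 48 h, with 110 of 17376 genes above it. Parp14 thus lay within the top percent of all genes at both times.

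The remaining 3 transferases were low in the untreated library. Parp10, first described as a partner of MYC, measured 5.06 CPM (252 UMIs), 13.9 CPM (988 UMIs) and 23.7 CPM (1118 UMIs). Parp11, which has a WWE domain, measured 6.41 CPM (319 UMIs), 35.4 CPM (2519 UMIs) and 83.1 CPM (3927 UMIs). Parp12, a zinc finger protein of the Golgi, measured 7.09 CPM (353 UMIs), 30.0 CPM (2132 UMIs) and 41.2 CPM (1947 UMIs). Each of the 3 had its highest level at 48 h. Their log2 ratios at 24 h were 1.46 (1.26 to 1.66) for Parp10, 2.47 (2.30 to 2.64) for Parp11 and 2.08 (1.92 to 2.25) for Parp12. At 48 h the log2 ratio was 2.23 (2.03 to 2.43) for Parp10, 3.70 (3.53 to 3.87) for Parp11 and 2.54 (2.38 to 2.71) for Parp12.

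Parp1 measured 73.0, 78.3 and 68.6 CPM (3637, 5564 and 3239 UMIs) in the untreated, 24 h and 48 h libraries, and Parp2 measured 43.2, 49.6 and 42.5 CPM (2149, 3529 and 2008 UMIs). The log2 ratio of Parp1 was 0.10 (0.04 to 0.16) at 24 h and -0.09 (-0.16 to -0.02) at 48 h. Under TMM these became 0.55 and 0.09. The log2 ratio of Parp2 was 0.20 (0.12 to 0.28) at 24 h and -0.02 (-0.11 to 0.07) at 48 h. Under TMM these became 0.65 and 0.16, so the small differences at 24 h depended on the scaling.

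**Figure D1:**
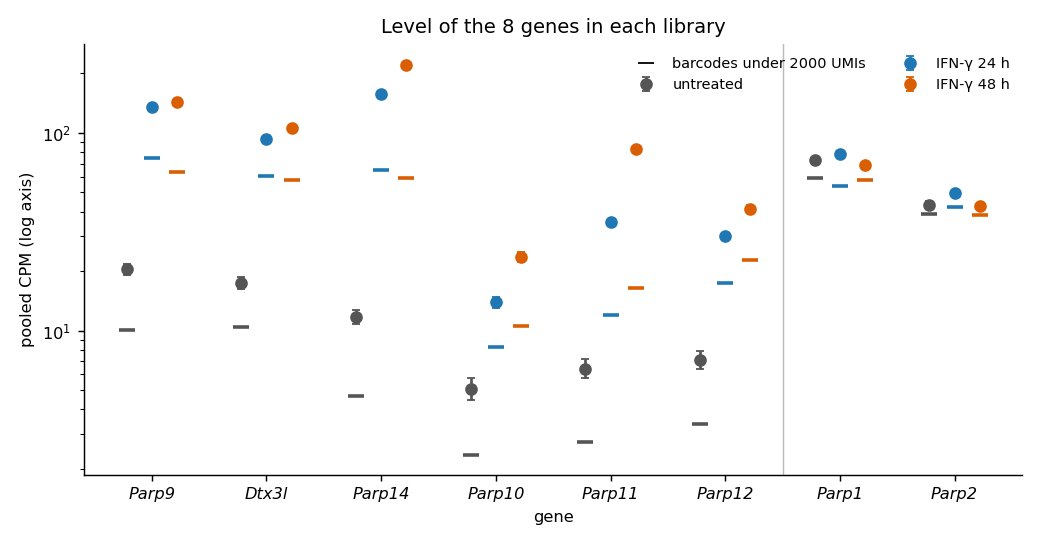
Pooled level of each gene (circles, CPM on a log axis, bars are 95% Poisson intervals) in the untreated, 24 h and 48 h libraries, with the level in barcodes of fewer than 2000 UMIs as dashes in the same colors. For the 6 genes on the left both treated libraries lie above the untreated library, from 5.06 CPM for untreated Parp10 to 220 CPM for Parp14 at 48 h, whereas the 3 libraries lie together for Parp1 and Parp2.

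The 48 h library was also set against the 24 h library. A log2 ratio of at least 1 was reached by 1 of the 6 interferon-linked genes, Parp11 with 1.23 (1.16 to 1.30), where 11.6% of 16814 genes were that much higher and 2.31% that much lower, a split that became 6.36% higher and 4.09% lower under TMM, where Parp11 was at 0.97. A count of 1 of 6 genes is near the share among all genes. Parp10 was at 0.77 (0.64 to 0.89), Parp14 at 0.49 (0.45 to 0.52) and Parp12 at 0.46 (0.37 to 0.55), beside a median of 0.26 over all genes. Parp9 and Dtx3l differed least, with 0.10 (0.05 to 0.14) and 0.18 (0.13 to 0.24), and both turned negative under TMM, at -0.16 and -0.08. Parp1 and Parp2 were at -0.19 (-0.25 to -0.13) and -0.22 (-0.30 to -0.14). The sign for Parp1 varied with the depth of the cells. It was at -0.12 (-0.60 to 0.39) in cells of 5000 to 10000 UMIs and at -0.17 (-0.45 to 0.11) from 10000 to 20000. From 20000 to 60000 UMIs Parp1 was at 0.32 (0.17 to 0.47), and above 60000 at 0.21 (0.0006 to 0.41). Parp2 was at -0.02 (-0.20 to 0.16) in cells of 20000 to 60000 UMIs.

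**Figure D2:**
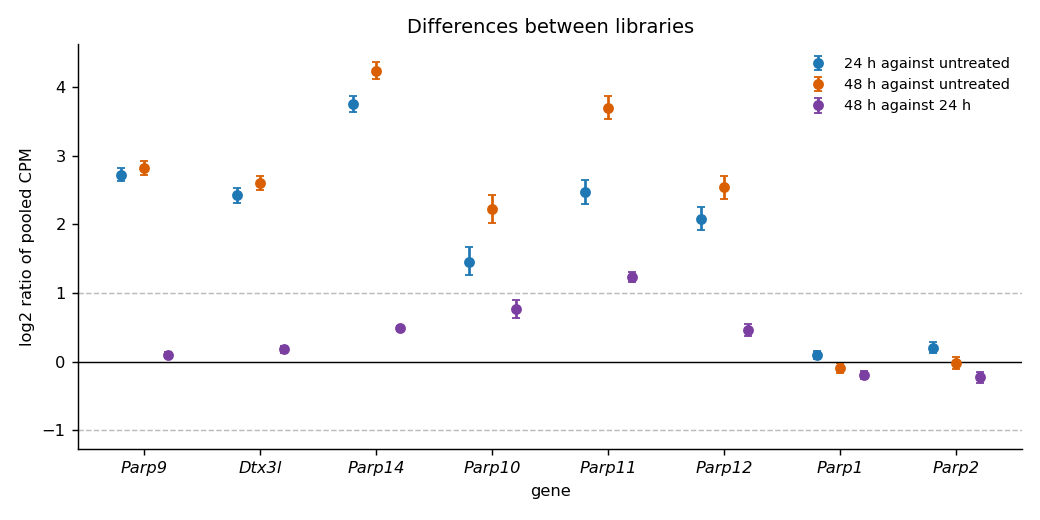
Log2 ratio of pooled CPM for each gene in the 3 contrasts between libraries, with exact 95% binomial intervals for counting error as bars and dashed lines at a log2 ratio of 1 and -1. The 6 interferon-linked genes lie between 1.46 and 4.24 in the contrasts with the untreated library, and only Parp11, at 1.23, passes 1 between 48 h and 24 h.

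Because the libraries differed in depth, the levels were also taken within cells of like depth, a split that was chosen after the data had been seen. Parp11 differed with depth. At 24 h it measured 99.9 CPM in the 95 cells with 5000 to 10000 UMIs, 94.2 CPM in the 131 cells with 10000 to 20000, 46.2 CPM in the 180 cells with 20000 to 60000 and 31.7 CPM in the 511 deeper cells. At 48 h it measured 114, 96.4, 67.1 and 70.3 CPM in the same order of depth, and in the untreated library 8.94, 9.91, 7.48 and 5.47 CPM. Cells of 10000 to 20000 UMIs thus had a higher Parp11 CPM than cells above 60000 UMIs in each library, in the untreated library with 9.91 (6.94 to 13.7) against 5.47 (4.69 to 6.34) CPM.

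Parp14 followed depth at 24 h, with 305, 312, 205 and 145 CPM from the shallowest to the deepest cells, and less so at 48 h, with 259, 232, 201 and 212 CPM. In the untreated library it measured 13.4, 18.4, 15.5 and 9.27 CPM, so it was lowest in the deepest cells there too. Parp9 stayed between 132 and 158 CPM at 24 h and between 136 and 155 CPM at 48 h, and in the untreated library it was 17.8 CPM in the deepest cells and 23.4 to 25.5 CPM in the others. Parp1 went the other way and was lowest in the shallowest cells of every library, with 44.7, 53.5 and 49.0 CPM in the untreated, 24 h and 48 h libraries, against 79.2, 80.8 and 93.4 CPM in the deepest cells. The nuclear RNA Malat1 went with depth as well, with 14569 CPM in the shallowest and 2222 CPM in the deepest cells at 24 h. The part of depth and of RNA quality in the levels of Parp11 and Parp14 was not tested.

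Within cells of 20000 to 60000 UMIs, of which there were 338 untreated, 180 at 24 h and 810 at 48 h, the log2 ratio to the untreated library stayed above 1 for all 6 interferon-linked genes. It ranged from 1.60 for Parp10 to 3.73 for Parp14 at 24 h and from 1.85 for Parp10 to 3.70 for Parp14 at 48 h. Between 48 h and 24 h, however, Parp14 was at -0.03 (-0.11 to 0.06), Parp9 at -0.05 (-0.15 to 0.05) and Dtx3l at -0.08 (-0.19 to 0.03). Parp10 was at 0.25 (-0.03 to 0.53), Parp12 at 0.17 and Parp11 at 0.54 (0.37 to 0.71) there. In cells of 10000 to 20000 UMIs Parp11 was at 0.03 (-0.20 to 0.27) and Parp14 at -0.43. With all cells thinned to 5000 UMIs, Parp12 was at 0.09. In cells above 60000 UMIs, of which the 48 h library held 32, Parp14 was at 0.54 (0.41 to 0.68) and Parp11 at 1.15 (0.90 to 1.39). The difference between 48 h and 24 h thus varied with depth for both genes and was about as large as in the whole libraries only in the deepest cells.

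**Figure D3:**
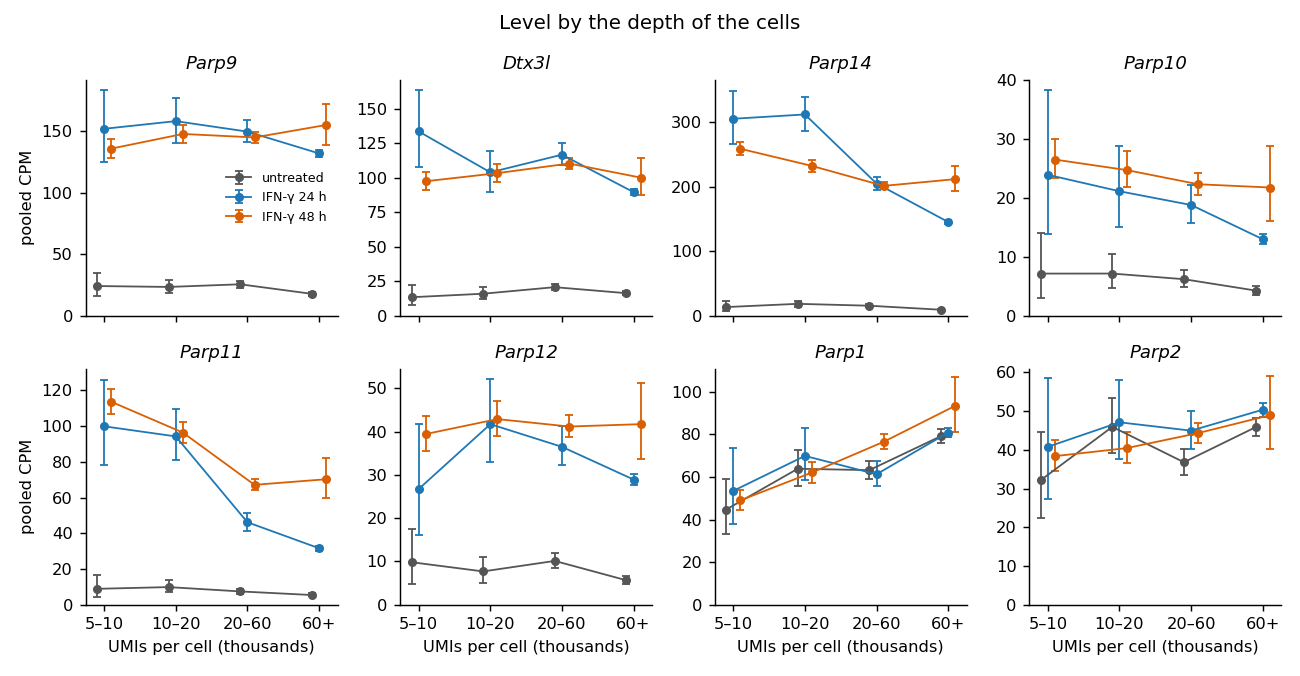
Pooled CPM of each gene (linear axes that start at 0, bars are 95% Poisson intervals) in cells grouped by their UMIs, in the untreated, 24 h and 48 h libraries. At 24 h Parp14 and Parp11 are lower in the deepest than in the shallowest cells, at 145 against 305 CPM and 31.7 against 99.9 CPM, and the treated libraries stay above the untreated library at every depth for the 6 interferon-linked genes.

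To compare single cells, every cell was thinned at random to 5000 UMIs. Parp14 was then found in 5.39% of untreated cells (4.11 to 6.92%), 57.9% of cells at 24 h (54.6 to 61.1%) and 62.6% at 48 h (60.9 to 64.4%). Barcodes of fewer than 2000 UMIs, which hold free RNA and any small cells, would give 2.31%, 27.8% and 25.5% of cells at the same depth. All 3 shares in cells lay above this background.

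Parp9 was found in 9.07%, 49.3% and 49.0% of thinned cells, beside a background of 4.88%, 31.3% and 27.3%. Dtx3l was found in 8.32%, 38.8% and 38.0%, beside 5.08%, 26.0% and 25.0%. Parp11 was found in 4.06%, 19.0% and 35.2%, beside 1.35%, 5.79% and 7.88%. For Parp9, Dtx3l and Parp11 the treated shares were above the background by more than their intervals, and the background itself was higher in the treated libraries. Parp10 was found in 2.36%, 7.63% and 11.2%, beside 1.16%, 4.06% and 5.11%, and Parp12 in 4.25%, 16.7% and 17.3%, beside 1.67%, 8.36% and 10.8%. Parp1 was found in 26.6%, 29.3% and 24.9% of cells beside a background of 25.7%, 23.7% and 25.1%, and Parp2 in 18.0%, 21.8% and 18.8% beside 17.8%, 19.0% and 17.5%, so their shares in the untreated and 48 h libraries were not distinguishable from background at this depth. Before thinning, the share of cells with a Parp9 and a Dtx3l UMI alone ran from 28.0% to 87.1% across libraries.

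At least 1 of the 6 interferon-linked genes was found in 28.1%, 89.5% and 92.8% of thinned cells (untreated, 24 h, 48 h). The background shares of the 6 genes, taken as independent, give 15.4%, 69.6% and 68.3% at this depth. The median was 0 genes per untreated cell and 2 genes per cell at both treated times. At least 3 of the 6 genes were found in 0.851%, 28.0% and 36.8% of cells, beside 0.0314%, 5.68% and 5.78% from the background. All 6 were found in 0 of 1058 untreated cells, which allows a share of up to 0.284% at this depth, in 2 cells at 24 h and in 7 cells at 48 h. Of single genes, Parp14 had the highest ratio of variance to mean between cells, at 1.69 at 24 h and 1.50 at 48 h. Pure counting noise gives 1, and Parp2 gave 0.950 at 24 h. Parp11 gave 1.31 and 1.23. Parp14 also had the highest mean, of 1.09 and 1.20 UMIs per thinned cell. This ratio can grow with the mean, so it does not rank the genes by how much they vary for their mean.

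**Figure D4:**
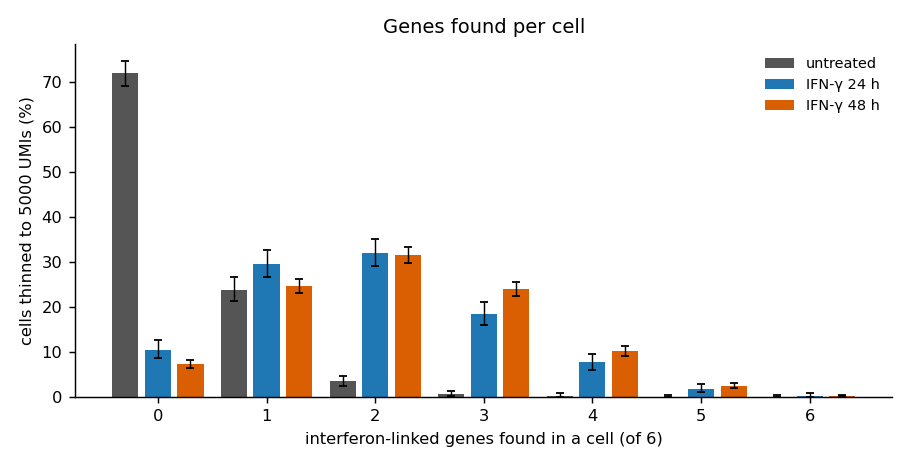
Share of cells (%, thinned to 5000 UMIs each, bars start at 0, error bars are exact 95% binomial intervals) in which 0 to 6 of the 6 interferon-linked genes were found. In the untreated library 71.9% of cells hold none of them, against 10.5% at 24 h and 7.23% at 48 h.

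Parp9 and Dtx3l, the pair with neighboring starts, were compared within cells. Both were found in 0.945% of thinned untreated cells (0.454 to 1.73%), in 20.8% (18.2 to 23.6%) after 24 h and in 20.6% (19.1 to 22.1%) after 48 h. The product of the single shares gives 0.755%, 19.1% and 18.6%. Only the 48 h interval lies above its product. The joint share over the product was alike at 24 h (1.09, 917 cells) and at 48 h (1.10, 2934 cells), so the intervals do not set the times apart. At 24 h Dtx3l was found in 42.3% of cells with Parp9 and in 35.5% of cells without it, and at 48 h in 41.9% and 34.2%.

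Over cells, the correlation of log thinned counts of Parp9 and Dtx3l was weak, with a Pearson r of 0.06 in 1058 untreated cells, 0.10 in 917 cells at 24 h and 0.08 in 2934 cells at 48 h. The cells of a library share their capture and free RNA, and without thinning r was 0.44, 0.80 and 0.52. Thinning evens out depth and also removes counts, and their parts in the lower r were not told apart. Parp9 and Parp14 had a like r of 0.13, 0.13 and 0.13, and Parp9 and Parp1 an r of -0.01, -0.04 and -0.01. At this thinned depth, r for Parp9 and Dtx3l was thus no higher than for Parp9 and Parp14 in any library. The order depended on the thinning. Without thinning, Parp9 and Parp14 had an r of 0.35, 0.74 and 0.52. These were lower than for Parp9 and Dtx3l in the untreated and 24 h libraries and alike at 48 h. With cells thinned to 10000 UMIs, the untreated r was 0.15 for Parp9 and Dtx3l and 0.09 for Parp9 and Parp14. In the treated libraries it stayed lower for Parp9 and Dtx3l, at 0.12 against 0.18 (24 h) and 0.15 against 0.18 (48 h).

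The ratio of Dtx3l to Parp9 UMIs was 0.853 (0.779 to 0.935) in the untreated library, 0.692 (0.671 to 0.715) at 24 h and 0.734 (0.707 to 0.761) at 48 h. It was thus lower in both treated libraries than in the untreated library by more than counting error, but not in cells of like depth below 60000 UMIs. In cells of 20000 to 60000 UMIs the ratio was 0.811 (0.689 to 0.953), 0.780 (0.712 to 0.855) and 0.762 (0.725 to 0.801), and in cells of 10000 to 20000 UMIs it was 0.682, 0.658 and 0.700. In cells above 60000 UMIs it was 0.919 (0.814 to 1.04), 0.679 (0.656 to 0.703) and 0.646 (0.543 to 0.768). Barcodes of fewer than 2000 UMIs gave higher ratios, of 1.04, 0.803 and 0.903. UMIs tag the 3′ end and count molecules, so these ratios carry no correction for transcript length and are set only against each other.

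Of the 6130 genes found in at least 10% of thinned cells at both treated times, the 5 with the highest mean r to Parp9 were Parp14 (0.13), Xdh (0.10), Ccser1 (0.10), Cers6 (0.10) and Rnf213 (0.10), with Dtx3l at 0.09. The 5 nearest to Dtx3l were Ifit2 (0.12), Parp14 (0.12), Lgals9 (0.12), Rnf213 (0.12) and Cldn4 (0.11). The 4 nearest to Parp14 were Malat1 (0.28), Neat1 (0.21), Rnf213 (0.21) and Akap13 (0.21), of which Malat1 and Neat1 are nuclear noncoding RNAs. These are descriptions over 917 and 2934 cells and all are low.

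Cells rich in markers of a cell state were then compared with the other cells of the same library, taking the 10% of cells with the highest share of UMIs from a marker list. Such a group is a range of cells and not a cell type, since 9 to 307 cells per library lay within 10% of the cut. Colonocyte markers summed to 2674 CPM untreated, 1280 CPM (24 h) and 1185 CPM (48 h), stem markers to 1282, 554 and 860 CPM, and S phase markers to 770, 872 and 737 CPM. The colonocyte sum rested mainly on abundant genes, with Car1 at 986, 100 and 56.5 CPM and Lypd8 at 900, 856 and 754 CPM. Krt20 gave only 21.6, 27.6 and 26.1 CPM and Slc26a3 62.0, 7.16 and 10.8 CPM. At each time 7 of the 10 colonocyte markers were at least 1 log2 unit lower than untreated, beside 26% (24 h) and 16.6% (48 h) of all genes. Krt20 was higher, by 0.35 (0.24 to 0.46) and 0.27 (0.15 to 0.39). Ranges of tuft markers in the untreated and 48 h libraries and of enteroendocrine markers at 48 h were not used, because cells without any such UMI reached the cut.

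In the untreated library, Parp12 was 20.2 CPM in the colonocyte range (106 cells, 116 UMIs) and 5.38 CPM in the remaining 952 cells, a log2 ratio of 1.91 (1.58 to 2.24). Parp14 was 23.2 and 10.2 CPM there (log2 ratio 1.18, 0.89 to 1.47), Parp10 8.71 and 4.58 CPM (0.93, 0.45 to 1.38), Parp9 33.1 and 18.7 CPM (0.82, 0.58 to 1.05) and Dtx3l 26.3 and 16.3 CPM (0.69, 0.43 to 0.95). These 5 genes were thus higher in untreated cells with a high summed share of colonocyte markers, beside a median of -0.33 over all 16241 genes. Parp11 was not, at -0.23 (-0.80 to 0.30). Parp1 and Parp2 were lower, with 32.0 against 78.4 CPM (-1.29, -1.51 to -1.08) and 25.3 against 45.5 CPM (-0.85, -1.10 to -0.61). The range also differed in Malat1, with 19284 against 8000 CPM, and in median depth, with 47218 against 29873 UMIs per cell; the part of either in these differences was not tested.

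In the treated libraries the ratios of most members to the other cells were nearer to 0. The ranges were not alike between libraries, since the median share of colonocyte markers in them was 105 UMIs per 10000 untreated and 27.0 and 25.9 at 24 h and 48 h, and that of G2/M markers was 1.01, 10.2 and 4.85 per 10000. The part of this in the smaller ratios was not tested. Parp12 was higher in the colonocyte range by 0.68 (0.50 to 0.86) at 24 h and 0.61 (0.43 to 0.78) at 48 h, Parp14 by 0.23 (0.14 to 0.32) and 0.33 (0.25 to 0.41), and Parp9 by 0.33 (0.24 to 0.42) and 0.40 (0.30 to 0.50), intervals that all lie below those of the untreated library. Dtx3l was higher by 0.43 (0.33 to 0.54) and 0.54 (0.42 to 0.65), which overlaps its untreated interval. Parp1 was lower in the range in each library, at -0.98 (-1.16 to -0.81) at 24 h and -0.65 (-0.84 to -0.46) at 48 h.

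Within the colonocyte range, treated cells were again set against untreated cells. Parp14 measured 23.2 CPM untreated, 181 CPM at 24 h and 268 CPM at 48 h, log2 ratios of 2.97 (2.71 to 3.24) and 3.53 (3.28 to 3.80). Parp11 measured 5.57, 31.8 and 79.6 CPM, log2 ratios of 2.51 (1.97 to 3.10) and 3.84 (3.32 to 4.40). Parp12 measured 20.2, 45.5 and 59.2 CPM, log2 ratios of 1.17 (0.86 to 1.49) and 1.55 (1.24 to 1.87). Parp10 was at 0.85 (0.35 to 1.36) and 1.83 (1.36 to 2.31). Parp12 and Parp10 thus had the smallest ratios of the 6 interferon-linked genes in the range, with intervals that overlap each other. All 6 genes were higher in treated than in untreated cells of this range. Parp1 was higher there too, by 0.38 (0.11 to 0.66) and 0.51 (0.23 to 0.80). Parp2 was at 0.53 (0.23 to 0.84) and 0.24 (-0.09 to 0.57). The median depth of the range was 47218 UMIs untreated, 58014 at 24 h and 16803 at 48 h, and its part in these ratios was not tested.

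The stem range took the cells with the highest summed share of Lgr5, Smoc2, Ascl2, Axin2, Slc12a2, Lrig1, Prom1 and Rgmb. Slc12a2 (537 CPM untreated) and Lrig1 (229 CPM) gave more to this sum than Lgr5 (151 CPM). Parp11 had the highest ratio of the members in this range in each library. It was 12.4 against 6.12 CPM untreated (log2 ratio 1.01, 0.40 to 1.58), 76.6 against 33.6 CPM at 24 h (1.19, 0.99 to 1.38) and 136 against 79.6 CPM at 48 h (0.77, 0.62 to 0.92). Of all genes, 31.3% untreated and 29.7% at 24 h were at least 1 log2 unit higher in this range, and 16.1% at 48 h. Parp14 was higher in the stem range at 24 h by 0.91 (0.81 to 1.01) and at 48 h by 0.48 (0.37 to 0.57). Stem-range cells were shallower than the others, at a median of 15186 against 41629 UMIs untreated, 16247 against 72475 at 24 h and 7960 against 11809 at 48 h. They also held more mitochondrial UMIs (7.87% against 2.02% at 24 h) and more Malat1 (7470 against 2836 CPM at 24 h), and the median over all genes was itself 0.54, 0.52 and 0.34 in the 3 libraries. The part of depth and RNA quality in the stem-range values was not tested. In the treated libraries Parp14 was 4.29 (3.79 to 4.84) at 24 h and 4.36 (3.86 to 4.91) at 48 h above the untreated stem range on the log2 scale. In the same comparison Parp1 was at 0.25 (-0.04 to 0.54) and -0.53 (-0.86 to -0.20), and Parp2 at 0.05 (-0.31 to 0.41) and -0.46 (-0.86 to -0.07).

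The S phase range, rich in Mcm genes and Pcna, held more Parp1 and Parp2 than the other cells in the untreated library. Parp1 was 111 against 68.8 CPM there (log2 ratio 0.69, 0.55 to 0.82) and Parp2 60.9 against 41.1 CPM (0.57, 0.39 to 0.74). Parp1 was also higher in this range at 24 h, by 0.45 (0.33 to 0.57), and at 48 h, by 0.22 (0.05 to 0.39), while Parp2 was at -0.09 (-0.27 to 0.08) and -0.02 (-0.25 to 0.20). Untreated cells of this range were deeper than the others (median 41269 against 33499 UMIs) and held less Malat1 (4170 against 9883 CPM) and fewer mitochondrial UMIs (3.32% against 5.02%), the part of which was not tested. Parp9, Dtx3l and Parp14 lay between -0.21 and 0.24 in all 3 libraries. Parp12 was lower in this range in the untreated library, at -0.84 (-1.55 to -0.21) from 21 UMIs, and at -0.20 (-0.44 to 0.03) and -0.23 (-0.48 to 0.02) when treated. Parp10 was at 0.08, -0.41 (-0.80 to -0.05) and -0.13 in the untreated, 24 h and 48 h libraries. Parp11 was at -0.35 (-0.99 to 0.23), -0.22 (-0.45 to -0.01) and -0.17 (-0.34 to -0.005). Treated cells of the S phase range were also set against untreated cells of this range. Parp1 was at -0.09 (-0.26 to 0.08) at 24 h and -0.49 (-0.69 to -0.29) at 48 h, and Parp2 at -0.38 (-0.61 to -0.14) and -0.54 (-0.82 to -0.27). The median depth of the range was 41269 UMIs untreated, 66312 at 24 h and 8893 at 48 h, and its part in these ratios was not tested.

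**Figure D5:**
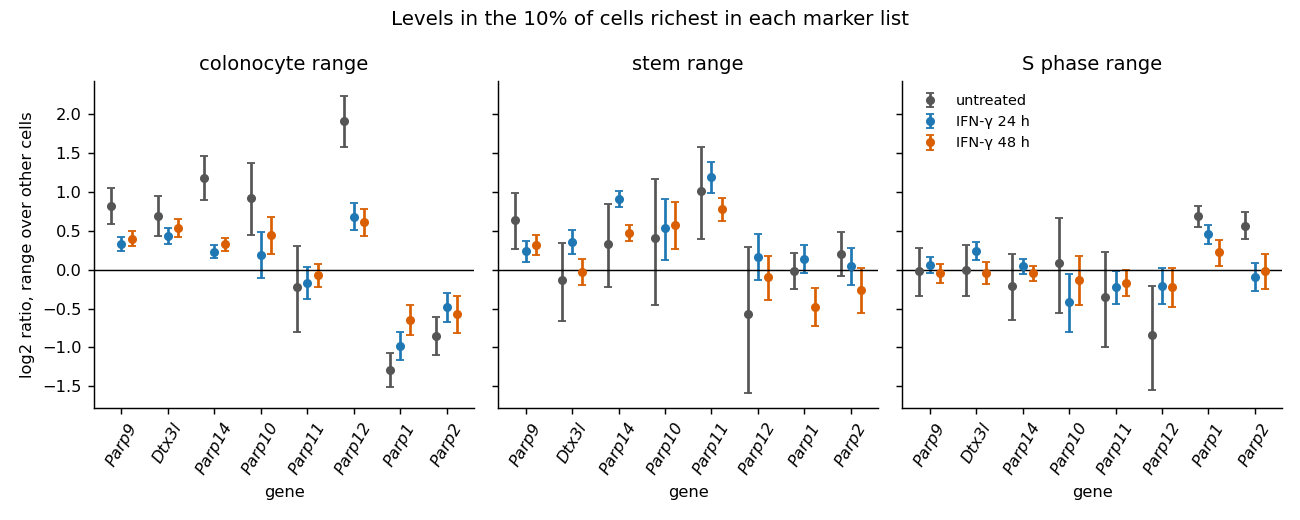
Log2 ratio of pooled CPM in the 10% of cells with the highest share of colonocyte, stem or S phase markers over the other cells of the same library, for each gene and library, with exact 95% binomial intervals as bars. In the untreated library Parp12 is highest in the colonocyte range (1.91) and Parp1 lowest (-1.29), and Parp11 is highest in the stem range (1.01). In the untreated S phase range Parp1 (0.69) and Parp2 (0.57) are highest and Parp12 is lowest (-0.84).

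The remaining genes of the pathway were read from lists of their own. Of the 9 other PARP family genes, 1 was at least 1 log2 unit higher at 24 h and 2 at 48 h, and 1 was that much lower at 24 h, beside 3.46% and 5.26% of all genes higher and 26% lower. Under TMM 1 was higher at 24 h and 3 were at 48 h, with Zc3hav1 at 1.14, and none was lower, with Parp6 at -0.57 at 24 h. Parp3, which acts in DNA break repair, measured 7.01, 18.1 and 22.9 CPM (log2 ratios 1.37 and 1.71). Parp8, a little studied transferase, measured 14.9, 19.8 and 52.0 CPM (0.41 and 1.81). Zc3hav1, the antiviral zinc finger protein also called PARP13, measured 47.3, 66.1 and 91.5 CPM (0.48 and 0.95), and Parp6 was at -1.02 and -0.33. Parp4, Parp16, Tnks, Tnks2 and Tiparp lay between -0.77 and 0.34. The median of the 9 genes was -0.09 at 24 h, which became 0.35 under TMM, and 0.10 at 48 h.

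The genes around the chromosome 16 group, a list that was chosen after the data had been seen, did not share its difference. Of the coding genes within 250000 bases of Dtx3l, Dirc2, Hspbap1, Kpna1, Wdr5b, Fam162a and Ccdc58 had log2 ratios between -0.54 and 0.47 at both times, and Csta1, a cystatin, was lower (-1.86 and -3.29). Stfa2l1 and Gm5483 had at most 1 UMI per library.

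No deltex gene other than Dtx3l passed 1 log2 unit, but Dtx3 at 48 h did under TMM (1.06). Dtx2, Dtx3 and Dtx4 were at 0.07, -0.05 and -0.42 at 24 h and at 0.27, 0.87 and 0.37 at 48 h, and Dtx1 had no UMI in any library. Of 7 genes from the families of ADP-ribose hydrolases (Parg, Adprhl2, Adprh, Adprhl1, Macrod1, Macrod2 and Oard1), 0 passed at 24 h and 1 at 48 h. The latter was Adprhl1, at 1.25 from 4 and 9 UMIs, with an interval that spans 0 (-0.60 to 3.40). Of all genes, 5.26% were that much higher at 48 h. Parg, the main hydrolase of the chains, was at -0.44 and -0.22, which became 0.01 and -0.03 under TMM. Of 6 partners of PARP1 and PARP2 in repair (Hpf1, Xrcc1, Lig3, Polb, Aplf and Chd1l), 0 passed at either time, with values between -0.29 and 0.38. Hpf1, which directs PARP1 and PARP2 to serine residues, was at 0.37 and -0.02, the second of which became positive under TMM.

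NAD+ is the substrate of all these transferases. Of 12 genes of NAD+ supply and use, 9 passed the count minimum at 24 h and 10 at 48 h, and at each time 1 was at least 1 log2 unit higher and 2 that much lower. The shares of lower genes were near the 26% and 16.6% of all genes. The 1 higher gene at each time stood beside 3.46% (24 h) and 5.26% (48 h) of all genes that were that much higher. Nampt, the rate-limiting enzyme of NAD+ salvage from nicotinamide, measured 55.8, 120 and 117 CPM (log2 ratios 1.11 and 1.07). Naprt, which starts NAD+ synthesis from nicotinic acid, measured 7.65, 2.66 and 2.26 CPM (-1.52 and -1.76). Nmnat2 was at -1.87 and -2.64, from 46, 18 and 7 UMIs. Cd38, which consumes NAD+, measured 110, 66.7 and 69.0 CPM (-0.72 and -0.67), and Qprt had no UMI. The higher Nampt and the lower Naprt thus stood beside each other in both treated libraries.

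Of transcription factors of the interferon pathway, Irf1, Stat2, Irf7 and Irf9 passed at each time. Among all genes, 3.46% at 24 h and 5.26% at 48 h were at least 1 log2 unit higher. Irf1, a target of IFN-γ signaling, measured 23.5, 331 and 310 CPM (3.82 and 3.72), and Stat2, Irf7 and Irf9 were at 1.99, 2.52 and 1.23 at 24 h and at 2.71, 2.59 and 1.40 at 48 h. The ratios of the 6 interferon-linked genes lay within the span of these 4 genes at both times, apart from Parp14 at 48 h, and all of these ratios share the same untreated library.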

How the data were processed

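Live cells of mouse colon organoids were captured with 3′ v3 chemistry (10x Genomics). Cell Ranger (6.0.1, per the submitters' processing notes) was used by the authors with the mm10 build, and UMI counts per gene and barcode were deposited without normalization. As in the paper's methods, cells below 5000 UMIs, below 400 genes or above 15% mitochondrial UMIs were left out. Doublets were not called. For each library, counts were summed over cells and divided by their total (CPM). Ratios carry exact conditional binomial intervals, shares Clopper-Pearson intervals and levels Poisson intervals (95%, counting error only; molecules of 1 cell are not independent samples). Genes with at least 10 counts over the compared libraries were used as background, and a library at 0 counts was set to 3. Cells were thinned to 5000 UMIs with a fixed seed. With 1 library per condition no test was made and no gene was called by a p-value. Ratios and intervals were tested on simulated data. Members and gene lists were chosen with earlier results of these data known, and a few list genes are not reported here. Alternatives were TMM factors (edgeR 4.0.16), other cell filters, thinning, mean over cells, background subtraction and scaling without the 100 most changed genes. Python 3.11.15 with scipy 1.17.1 was used.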

Additional observations from a re-analysis of the deposited data

Results flagged for a closer look

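Barcodes of fewer than 2000 UMIs, which lie outside the filtered cells and serve only as background, held more of the 6 interferon-linked genes in the treated libraries than in the untreated library. In these barcodes Parp9 measured 75.0 CPM at 24 h and 63.8 CPM at 48 h, against 10.0 CPM untreated. Dtx3l measured 60.3 and 57.6 CPM against 10.4 CPM. Parp14 measured 65.1 and 58.8 CPM against 4.68 CPM. Parp10 measured 8.29 and 10.5 CPM against 2.34 CPM, Parp11 measured 11.9 and 16.4 CPM against 2.72 CPM, and Parp12 measured 17.5 and 22.8 CPM against 3.37 CPM. In each library these levels were below those of the filtered cells, at 19.7% of the level in cells for Parp11 at 48 h and 64.7% for Dtx3l at 24 h.

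Parp1 and Parp2 had ratios of opposite sign at the 2 treatment times. The log2 ratio to the untreated library was 0.10 at 24 h and -0.091 at 48 h for Parp1, and 0.20 at 24 h and -0.022 at 48 h for Parp2. The 48 h interval of Parp2 spans 0 (-0.11 to 0.07), and both 48 h values were positive under TMM (0.09 and 0.16) and in cells of 20000 to 60000 UMIs (0.28 and 0.27), where Parp1 was at -0.04 at 24 h. The difference between the times was not tested across samples, since each time is 1 library.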

How the results depend on the processing

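The log2 ratios of the 6 interferon-linked genes to the untreated library stayed at or above 1 in 120 of 120 values under the alternatives, from 1.42 to 4.42, and the ratios of Parp1 and Parp2 ranged from -0.49 to 0.65 over all contrasts. Of 240 ratios of members under alternatives, 82 lay outside the counting interval and 20 changed sign, none of them of a ratio past 1. The 1 gene past 1 between 48 h and 24 h, Parp11, gave a count of 0 under TMM, under the mean over cells and in cells of 20000 to 60000 UMIs, the last of which was added after the data had been seen. Under TMM, 7.03% of all genes were higher and 16.7% lower at 24 h. Between 48 h and 24 h, 6.36% were higher and 4.09% lower under TMM, and 7.33% and 1.31% with a minimum of 50 counts. The share of cells with a Parp9 and a Dtx3l UMI was 28.0%, 87.1% and 53.6% (untreated, 24 h, 48 h) without thinning and 3.74%, 47.8% and 48.0% at 10000 UMIs. The ratio of Dtx3l to Parp9 was 1.04, 0.803 and 0.903 in barcodes of fewer than 2000 UMIs, and 0.780 (24 h) and 0.762 (48 h) in cells of 20000 to 60000 UMIs. The cause of these changes was not tested. Thinning evens out depth and also removes counts, and the part of each was not told apart. With ranges of 20% of cells, 34 of 168 ratios moved outside their counting interval. This count includes the ranges of tuft and enteroendocrine markers that were not used. At 20%, cells without an enteroendocrine marker UMI reached the cut at 24 h as well. No paired analysis was possible because each condition has 1 library. Single libraries cannot separate treatment from culture, capture or depth.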

Other observations

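The goblet range was the 10% of cells with the highest summed share of goblet markers, of which Agr2 and Tff3 had the highest CPM. Parp12 was higher there than in the other cells at 48 h (52.8 against 40.0 CPM, log2 ratio 0.40, 0.20 to 0.60). It was at 0.03 (-0.45 to 0.48) untreated and 0.11 (-0.08 to 0.30) at 24 h. At 24 h Parp14, Dtx3l, Parp11 and Parp9 were lower in this range, at -0.55 (-0.64 to -0.45), -0.47 (-0.60 to -0.35), -0.37 (-0.57 to -0.18) and -0.31 (-0.41 to -0.22). The median over all genes was -0.17 there, Malat1 was 2084 against 3166 CPM, and in the richest 20% of cells Parp11 was at -0.13 (-0.27 to 0.01). The part of Malat1, as a sign of RNA quality, was not tested. Their values in the goblet range at 48 h lay between -0.15 and 0.02. Goblet markers summed to 2997 CPM untreated, 999 CPM at 24 h and 696 CPM at 48 h.

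In the G2/M range, rich in Mki67, Top2a and other mitotic genes, Parp1 was higher than in the other cells in the untreated library (89.2 against 71.0 CPM, log2 ratio 0.33, 0.19 to 0.47) and at 48 h (0.27, 0.12 to 0.41), and at 0.12 (-0.01 to 0.25) at 24 h. Parp2 was higher by 0.34 (0.16 to 0.52) untreated and 0.32 (0.15 to 0.47) at 24 h, and at 0.17 (-0.02 to 0.35) at 48 h. The median over all genes in this range was 0.06 untreated, 0.14 at 24 h and -0.03 at 48 h. Cells of the range were deeper than the others at 48 h (median 15780 against 10473 UMIs). They held more Malat1 at 24 h (4772 against 2878 CPM), and the part of depth and RNA quality was not tested.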
